A study of Mus musculus with 6 samples.

Results

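The genes described here are cytochrome P450 genes of families 1 to 3 in primary mouse hepatocytes that were cultured with or without bone morphogenetic protein 2 (BMP2). They were chosen by name alone, as every probe set whose mouse gene symbol is Cyp1, Cyp2 or Cyp3 followed by 1 subfamily letter and a number. This gave 53 of the 21115 probe sets on the array, 1 per gene, in 16 subfamilies, of which 9 held a single gene. Family 1 had 3 members, family 2 had 43 and family 3 had 7. Cyp2ab1 and the pseudogene Cyp2d37-ps are outside the naming rule, and both lay near the lower end of the scale, at 6.58 and 6.67 on average. Cyp2d13, annotated as a transcribed pseudogene, fits the rule and is counted among the 53.

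Hepatocytes of C57BL/6 mice were plated on collagen in medium with serum and dexamethasone, moved to serum-free medium with dexamethasone, and on the next day to serum-free medium without it. The 3 BMP2 samples received 50 ng/ml recombinant BMP2 for 24 hours, and the 3 control samples did not. The cells came from 3 mice, and samples of the same replicate number were taken as a pair. The labels give neither the age nor the sex of the mice, nor whether the acid in which BMP2 was dissolved was added to the controls. Biotin-labelled cRNA made from total RNA was hybridised to an Affymetrix array, and each value below is a log2 expression value.

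Cytochrome P450 enzymes hold a haem iron with which they insert oxygen into their substrates. The microsomal enzymes of families 1 to 3 are the main oxidases of drugs and other foreign compounds in liver, and several also act on steroids, bile acids, fatty acids or vitamin D. Their genes are controlled by ligand-activated receptors such as AHR, PXR and CAR together with liver transcription factors such as HNF4A. Many are expressed mainly in the pericentral zone of the liver lobule.

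The promoters of the Cyp1a and Cyp3a genes that the results turn on are shown first, because within each subfamily genes of related sequence differed in their values. Each window runs from 250 bases before to 50 bases after the RefSeq start site in GRCm38.p6, on the strand of the gene. Capitals mark the 5 motifs searched on both strands, which are GCGTG (core of the AHR element), AGGTCA (nuclear receptor element), CAAAGTCCA (HNF4 site), GGCGCC (a BMP-SMAD element) and TATAAA. No 2 motifs overlapped in a window of a member. The Cyp1a2 window is chr9:57683606-57683905 on the minus strand, and the Cyp1a1 window is chr9:57697363-57697662 on the plus strand, with 13958 bases between the start sites. The Cyp3a11 window is chr5:145879805-145880104 and the Cyp3a13 window is chr5:137921570-137921869, both on the minus strand. The Cyp1a1 and Cyp3a13 windows lie inside the annotated spans of their genes, chr9:57687928-57703824 and chr5:137892933-137925610. The outer 5' ends of these 2 spans were not searched.
Cyp1a2: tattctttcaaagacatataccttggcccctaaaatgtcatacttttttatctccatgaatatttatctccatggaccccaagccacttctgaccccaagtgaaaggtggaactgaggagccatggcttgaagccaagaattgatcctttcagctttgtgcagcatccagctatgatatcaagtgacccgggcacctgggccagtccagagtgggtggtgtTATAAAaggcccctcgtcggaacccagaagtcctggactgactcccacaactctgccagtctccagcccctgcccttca
Cyp1a1: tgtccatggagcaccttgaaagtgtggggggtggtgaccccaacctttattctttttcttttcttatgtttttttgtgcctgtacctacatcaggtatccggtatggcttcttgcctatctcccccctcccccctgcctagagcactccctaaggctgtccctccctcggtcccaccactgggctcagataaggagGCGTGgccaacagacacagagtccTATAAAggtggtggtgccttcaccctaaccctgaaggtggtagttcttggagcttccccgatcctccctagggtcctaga
Cyp3a11: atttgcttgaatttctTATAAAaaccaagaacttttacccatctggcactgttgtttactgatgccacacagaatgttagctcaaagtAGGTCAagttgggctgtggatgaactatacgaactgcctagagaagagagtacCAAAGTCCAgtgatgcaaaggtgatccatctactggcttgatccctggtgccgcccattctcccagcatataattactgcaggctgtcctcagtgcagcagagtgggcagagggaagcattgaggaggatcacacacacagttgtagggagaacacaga
Cyp3a13: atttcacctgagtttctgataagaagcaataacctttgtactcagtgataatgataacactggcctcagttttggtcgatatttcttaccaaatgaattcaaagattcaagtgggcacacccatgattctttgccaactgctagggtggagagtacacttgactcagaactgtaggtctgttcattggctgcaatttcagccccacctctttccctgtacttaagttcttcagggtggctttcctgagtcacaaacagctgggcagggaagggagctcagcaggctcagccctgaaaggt

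The windows of this set differed in the letters found. Cyp1a1 held GCGTG and TATAAA, and Cyp1a2 held TATAAA alone. Cyp3a11 held TATAAA with AGGTCA and the HNF4 site, and Cyp3a13 held none of the 5. A match is a description of the letters and does not show that a factor binds there, and a window without one says nothing about the factor.

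Of the 53 members 45 had a RefSeq window, in 48 windows. Cyp2u1, Cyp2d22, Cyp2d34, Cyp2c23, Cyp2g1, Cyp2c54, Cyp2d12 and Cyp2d13 were not used here. The 9-letter HNF4 site CAAAGTCCA was present in 6 of the 45 members, or 13.3%. By window it was present in 6 of the 48, against 0.475% of all 32851 windows. The 6 sites, with 10 bases on each side, are shown because they are held by 4 genes of the Cyp2c cluster and 2 of the Cyp3a cluster. Capitals mark the site, and all 6 lie on the strand of the gene. They are at chr19:39060880-39060908 on the plus strand for Cyp2c65, and on the minus strand at chr19:39649149-39649177 for Cyp2c67, chr19:39741160-39741188 for Cyp2c68, chr19:40187332-40187360 for Cyp2c70, chr5:145879945-145879973 for Cyp3a11 and chr5:145469804-145469832 for Cyp3a16.
Cyp2c65: gatgttggaaCAAAGTCCActgggaggag
Cyp2c67: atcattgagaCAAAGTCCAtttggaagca
Cyp2c68: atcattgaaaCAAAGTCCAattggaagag
Cyp2c70: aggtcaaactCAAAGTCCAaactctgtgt
Cyp3a11: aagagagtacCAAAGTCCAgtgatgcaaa
Cyp3a16: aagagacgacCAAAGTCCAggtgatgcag

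The site began 116 bases before the start site in Cyp2c65, 125 in Cyp2c67, 77 in Cyp2c68, 64 in Cyp2c70, 109 in Cyp3a11 and 99 in Cyp3a16. TATAAA was found in 22 of the 45 members and in 22 of their 48 windows, against 13.6% of all windows. AGGTCA was found in 16 members and 17 windows (16.3% of all windows), and GCGTG in 9 members and 10 windows (32.4%). GGCGCC was found in 1 window, that of Cyp2r1 (11.9%). Neighbouring P450 genes share ancestry, so their windows are not independent of each other.

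Most members lay near the lower end of the scale. The values of all samples ran from 6.35 to 14.02, and the array medians from 6.80 to 6.81. Changes are compressed near the lower end, so a mean over the 6 samples below 7 is called near the floor here. By this measure 39 of the 53 members (73.6%) were near the floor, against 57.9% of all probe sets, and 14 were above it. Cyp2d10 lay just above the limit with a mean of 7.04, and Cyp2c68 just below it with 6.96. The mean includes the BMP2 samples, and Cyp2a12 reached 7.06 with a control mean of 6.82 and a BMP2 mean of 7.29.

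Of 3 genes that mark hepatocytes among the P450 genes, Cyp1a2 and Cyp3a11 were above the floor, and Cyp2e1, an ethanol-oxidising enzyme of the pericentral zone, was near it in all 6 samples (6.74 to 6.80). Of all 9 hepatocyte markers 2 were near the floor, Cyp2e1 among them, and albumin lay between 13.71 and 13.84. Markers of blood cells were all near the floor, as were 5 of 6 endothelial and 5 of 6 macrophage markers. The mean level of the 6 endothelial markers was 6.75 to 6.805 in control and 6.77 to 6.84 in BMP2 samples, that of the 6 macrophage markers 6.74 to 6.85 and 6.71 to 6.76, and that of the 5 blood markers 6.54 to 6.56 and 6.55. The 6 stellate cell and fibroblast markers had means of 6.96 to 7.04 and 6.88 to 6.95. Among them Acta2 differed by -0.49 (limma adjusted p = 0.20), and Cd68 of the macrophage list differed by -0.34 (adjusted p = 0.56). Of the 4 cholangiocyte markers Krt7 and Epcam were near the floor, and the mean of the 4 was 7.93 to 8.08 in control and 7.97 to 8.01 in BMP2 samples. Krt19 of that list differed by -0.51 (limma adjusted p = 0.0725), and Sox9 by 0.46 (adjusted p = 0.14, and 0.039 with the pairing described below). Of the other hepatocyte markers Ttr rose by 0.68 with that pairing (adjusted p = 0.017), while Serpina1a at 0.35, Apoa1 at 0.32, Hpd at 0.030, albumin at -0.034 and Tat at -0.038 did not pass. In bulk samples fewer cells of a type and less RNA per cell cannot be told apart, and the part of other cell types in the results was not tested.

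Id1, a BMP target gene, rose from 7.39 to 11.68 with BMP2 (limma adjusted p = 0.00094). Over the P450 genes, 1 member passed the test without pairing and 6 passed when the replicate number was a block, 5 higher and 1 lower. The 5 higher were Cyp1a2, Cyp3a11, Cyp2c70, Cyp2d22 and Cyp2u1, and the lower was Cyp3a13. The largest differences were in Cyp1a2, at 2.79-fold, and Cyp3a11, at 2.37-fold.

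Genes were called at an adjusted p below 0.05 in limma, with p-values adjusted by Benjamini-Hochberg across the whole array of 21115 probe sets. Without pairing, the 1 member called is 1.89% of the 53, beside 1.19% of all probe sets (0.616% higher and 0.573% lower). With the block, the 6 members are 11.3% of the 53, beside 3.32% of all probe sets (1.68% higher and 1.64% lower). All 6 are among the 14 members above the floor, where the block called 3.78% of all probe sets higher and 3.67% lower. At an unadjusted p below 0.05, without pairing, 6 members were higher and 2 lower, out of 53, beside 12.5% of all probe sets in either direction. The median difference over the 53 members was 0.0042, beside 0.00065 over all probe sets. In 17 members BMP2 was higher in all 3 pairs and in 7 it was lower, beside 19.1% and 17.6% of all probe sets. Among the 14 members above the floor 10 were higher in all 3 pairs and 2 lower, beside 28.2% and 22.4% of probe sets at that level. Cyp2a12 is among those 10 and was above the floor only through its BMP2 samples, so the limit is not independent of the direction. Other models of the variance called other numbers of members. An intensity trend called 2 (2.07% of all probe sets), testing only probe sets with a mean of 7 or more called 2 (4.99%), the block with the trend called 12 (6.05%), and the block with the filter called 10 (14.3%), the last pair of fits having been added after the data were seen. With any 1 replicate number left out, the block called none of the 53 members and none of all probe sets in limma. In those fits 10 to 13 members had an unadjusted p below 0.05, beside 12.1% to 17.7% of all probe sets.

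**Figure D1:**
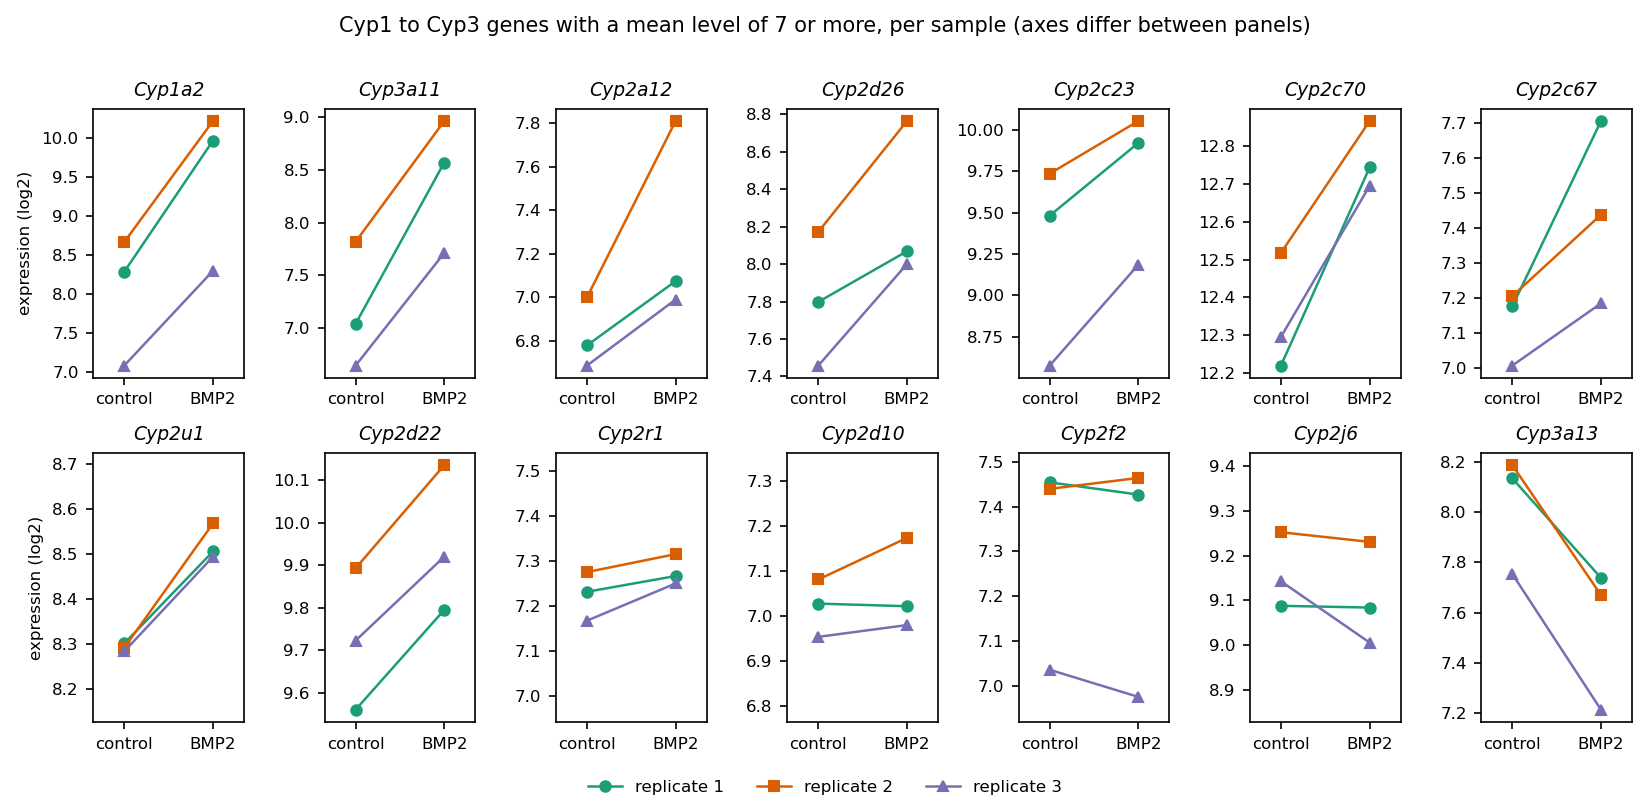
Expression (log2, vertical axis, a different range in each panel) in control and BMP2 samples for the 14 members with a mean of 7 or more. Each line joins the control and BMP2 sample of 1 replicate number. In Cyp1a2 and Cyp3a11 the lines run upwards side by side with replicate 3 lowest, and in Cyp3a13 all 3 lines run downwards.

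In subfamily 1A, Cyp1a2, the main family 1 enzyme of liver, which oxidises caffeine and aryl amines, had control levels of 8.29, 8.67 and 7.09 in replicates 1, 2 and 3. Its levels with BMP2 were 9.96, 10.22 and 8.30. The groups overlapped, because the BMP2 sample of replicate 3 lay below the control of replicate 2, but within each replicate number BMP2 was higher, by 1.68, 1.55 and 1.21. The group means were 8.01 ± 0.83 and 9.49 ± 1.04 (SD, n = 3). The difference was 1.48 with an SE of 0.67 without pairing (limma adjusted p = 0.49) and an SE of 0.11 with the block (adjusted p = 0.030, 95% interval 1.16 to 1.80).

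Cyp1a1, the AHR-inducible neighbour of Cyp1a2, was near the floor, at 6.62, 6.56 and 6.61 in control and 6.70, 6.79 and 6.64 in BMP2 samples. The groups did not overlap, and the difference was 0.11 ± 0.04 (SE) with a limma adjusted p of 0.34 without pairing and also with the block. Cyp1b1, a family 1 enzyme known mainly outside the liver, was near the floor (6.54 to 6.57), with a difference of 0.0033.

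In subfamily 3A the members that were above the floor went opposite ways. Cyp3a11, the main family 3 enzyme of adult mouse liver and a PXR target, had control levels of 7.04, 7.82 and 6.65 and BMP2 levels of 8.57, 8.96 and 7.71 in replicates 1, 2 and 3. The groups overlapped, since the BMP2 sample of replicate 3 lay below the control of replicate 2. Within replicate numbers BMP2 was higher by 1.53, 1.14 and 1.07. The difference was 1.25 with an SE of 0.44 without pairing (limma adjusted p = 0.34) and of 0.11 with the block (adjusted p = 0.040, 95% interval 0.92 to 1.57). The control of replicate 3, at 6.65, was near the floor.

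Cyp3a13, another family 3 enzyme of liver and intestine, had control levels of 8.13, 8.19 and 7.75 and BMP2 levels of 7.74, 7.67 and 7.21. All BMP2 samples lay below all controls, and the pairs differed by -0.40, -0.52 and -0.54. The mean difference was -0.49 with an SE of 0.19 without pairing (limma adjusted p = 0.39) and of 0.035 with the block (adjusted p = 0.030, 95% interval -0.59 to -0.38). In the order of the members on chromosome 5 Cyp3a13 is separated by Cyp2w1 from the other 6 Cyp3a members, which follow each other. The gap between Cyp3a13 and Cyp3a57, the first of those 6, is 7.42 Mb.

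The other 5 Cyp3a members (Cyp3a16, Cyp3a25, Cyp3a44, Cyp3a57 and Cyp3a59) were near the floor in both groups. Cyp3a25 differed by 0.045 ± 0.015 (SE), with a limma adjusted p of 0.32. Cyp3a16, whose promoter also holds the HNF4 site, stood at 6.40 in both groups. How well the probes separate closely related P450 genes was not tested.

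Of the 13 Cyp2c members on chromosome 19, 3 were above the floor and 10 near it, and all 13 differed by -0.025 to 0.46. Cyp2c70, which makes muricholic acids from bile acids in mice, had control levels of 12.22, 12.52 and 12.29 and BMP2 levels of 12.74, 12.87 and 12.70. All BMP2 samples lay above all controls. The difference was 0.43, or 1.34-fold, with an SE of 0.091 without pairing (limma adjusted p = 0.13) and of 0.041 with the block (adjusted p = 0.042).

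Cyp2c23, an arachidonic acid epoxygenase, had control levels of 9.48, 9.74 and 8.58 and BMP2 levels of 9.92, 10.05 and 9.19. BMP2 was higher in each pair, by 0.44, 0.32 and 0.61, while the groups overlapped through the low values of replicate 3. The difference of 0.46 had a limma adjusted p of 0.80 without pairing and 0.075 with the block. Cyp2c67 was higher by 0.53, 0.23 and 0.18 in the pairs, from control levels of 7.18, 7.21 and 7.01, with an adjusted p of 0.20 with the block.

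The genes that hold the HNF4 site varied in their values. Beside Cyp2c70 and Cyp3a11, both called with the block, Cyp2c67 differed by 0.31 and Cyp2c68 by 0.18 without passing in either fit. Cyp2c65 and Cyp3a16 stood near the floor with differences of -0.0042 and 0.0029. Cyp2c29, an abundant enzyme of mouse liver, was near the floor here (6.58 to 6.80) and differed by 0.054 ± 0.055 (SE). Cyp2c37 differed by 0.036 ± 0.012 (SE, limma adjusted p = 0.32) near the floor.

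All 9 Cyp2d members lie together on chromosome 15. Cyp2d22, the gene at 1 end of the row and a mouse relative of the human drug-metabolising enzyme CYP2D6, had control levels of 9.56, 9.89 and 9.72 and BMP2 levels of 9.79, 10.13 and 9.92. BMP2 was higher by 0.23, 0.24 and 0.20, a narrow range, while the groups overlapped. The difference of 0.22 had a limma adjusted p of 0.59 without pairing and 0.023 with the block (SE 0.013). Cyp2d26, the gene at the other end, was higher by 0.27, 0.59 and 0.54 in the pairs, from control levels of 7.80, 8.17 and 7.46, and did not pass (adjusted p = 0.65 without pairing and 0.091 with the block).

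The 7 Cyp2d genes between them differed by 0.00098 to 0.086. The highest of these values belonged to Cyp2d9, a testosterone hydroxylase that is higher in male mice, which stood at 6.76, 6.87 and 6.68 in control and 6.83, 6.99 and 6.74 in BMP2 samples. All 9 Cyp2d differences were above 0, as were 10816 of all 21115 probe sets. Of the 9 members 6 were near the floor and 6 had pairs of mixed sign, and 1 passed with the block. Cyp2d10, at 7.04 on average, differed by 0.038 ± 0.062 (SE).

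**Figure D2:**
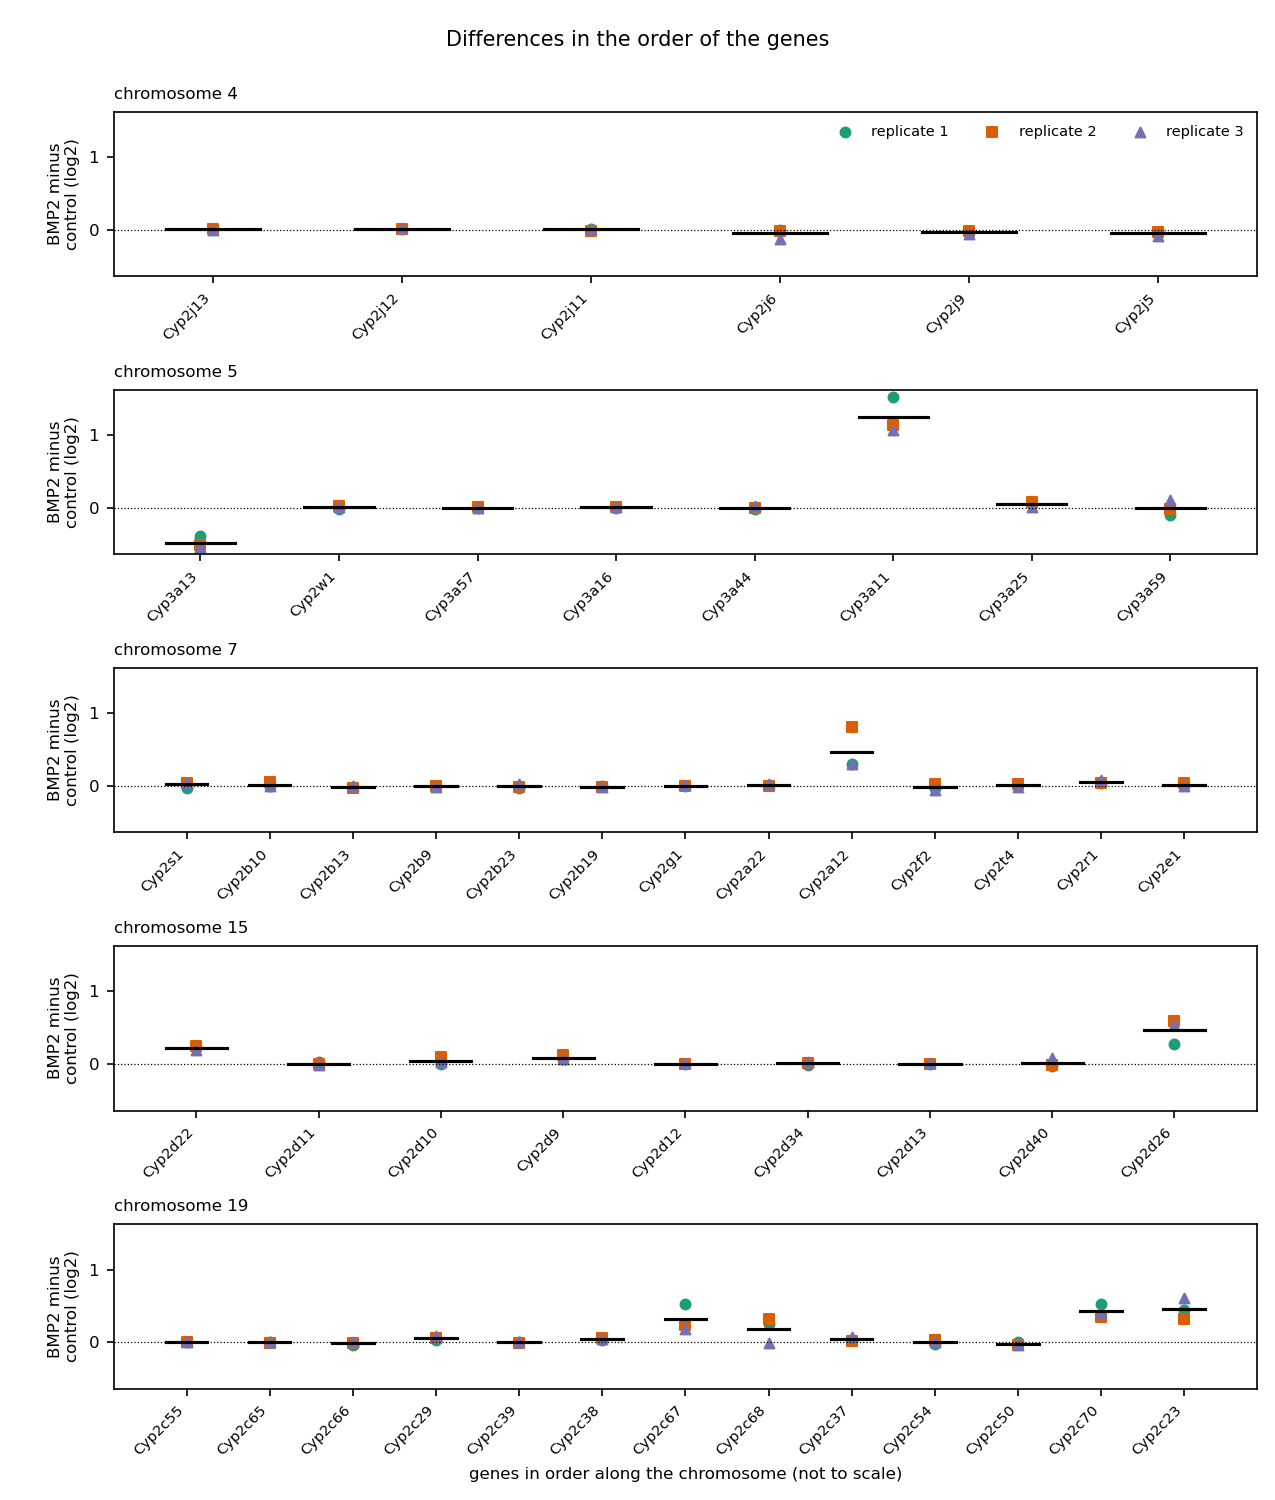
Difference between BMP2 and control (log2, vertical axis) for the members on chromosomes 4, 5, 7, 15 and 19, in the order of the genes along each chromosome and not to scale. Points are the 3 replicate numbers and the black bar is their mean. Mean differences above 0.4 are seen for Cyp3a11, Cyp2a12, Cyp2d26, Cyp2c70 and Cyp2c23. The last pair follow each other only in the order of the members on chromosome 19, and lie 3.82 Mb apart.

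Cyp2u1, a fatty acid hydroxylase that is the only member of its subfamily, was the 1 member called without pairing. Its control levels of 8.30, 8.29 and 8.28 were nearly equal, and its BMP2 levels were 8.51, 8.57 and 8.49, all above the controls. The difference was 0.23 ± 0.022 (SE), or 1.17-fold, with a limma adjusted p of 0.023 without pairing and 0.037 with the block. It passed in 2 of the 6 fits with 1 sample left out, with the highest adjusted p (0.11) without control replicate 2.

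In subfamily 2A, Cyp2a12, a steroid hydroxylase that also rehydroxylates secondary bile acids in mice, had control levels of 6.78, 6.998 and 6.68 and BMP2 levels of 7.07, 7.81 and 6.99. BMP2 was higher in each pair, by 0.30, 0.81 and 0.30, with replicate 2 apart from the others. The difference of 0.47 had a limma adjusted p of 0.56 without pairing and 0.21 with the block. Cyp2a22 was near the floor.

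The 5 Cyp2b members were all near the floor, with differences from -0.016 to 0.015. Cyp2b10, the classical CAR target, stood between 6.67 and 6.75. Cyp2b9 and Cyp2b13, which are higher in female mice, stood at 6.49 and 6.45 on average. At these levels a change of the transcripts could be missed.

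Of the 6 Cyp2j members Cyp2j6 was above the floor. It stood at 9.09, 9.25 and 9.14 in control and 9.08, 9.23 and 9.01 in BMP2 samples, a difference of -0.054 with a 95% interval of -0.24 to 0.13 without pairing. Cyp2j5 and Cyp2j9 were near the floor, with all BMP2 samples below the controls and mean differences of -0.054 and -0.0335, and neither passed (limma adjusted p = 0.30 and 0.45). With Cyp3a13 and Cyp2b13 they were the 4 members whose BMP2 samples all lay below the controls, beside 8.25% of all probe sets. In 6 members all BMP2 samples lay above the controls, beside 8.42% of all probe sets, and these were Cyp1a1, Cyp2c37, Cyp2c70, Cyp2j12, Cyp2u1 and Cyp3a25.

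Among the single-gene subfamilies, Cyp2f2, a periportal enzyme that activates naphthalene, differed by -0.021 with a 95% interval of -0.49 to 0.44 without pairing. Replicate 3 was lowest in both groups, at 7.45, 7.44 and 7.04 in control and 7.43, 7.46 and 6.98 in BMP2 samples for replicates 1, 2 and 3. Cyp2r1, a vitamin D hydroxylase, was higher in each pair by 0.035, 0.040 and 0.083 and did not pass (limma adjusted p = 0.68, and 0.19 with the block). Cyp2e1, at 6.74, 6.76 and 6.79 in control and 6.75, 6.80 and 6.78 in BMP2 samples, differed by 0.013 with a 95% interval of -0.036 to 0.062. Cyp2g1, known from the olfactory mucosa, and Cyp2s1, Cyp2t4 and Cyp2w1 were near the floor, with differences of -0.00098, 0.018, 0.0039 and 0.0072.

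**Figure D3:**
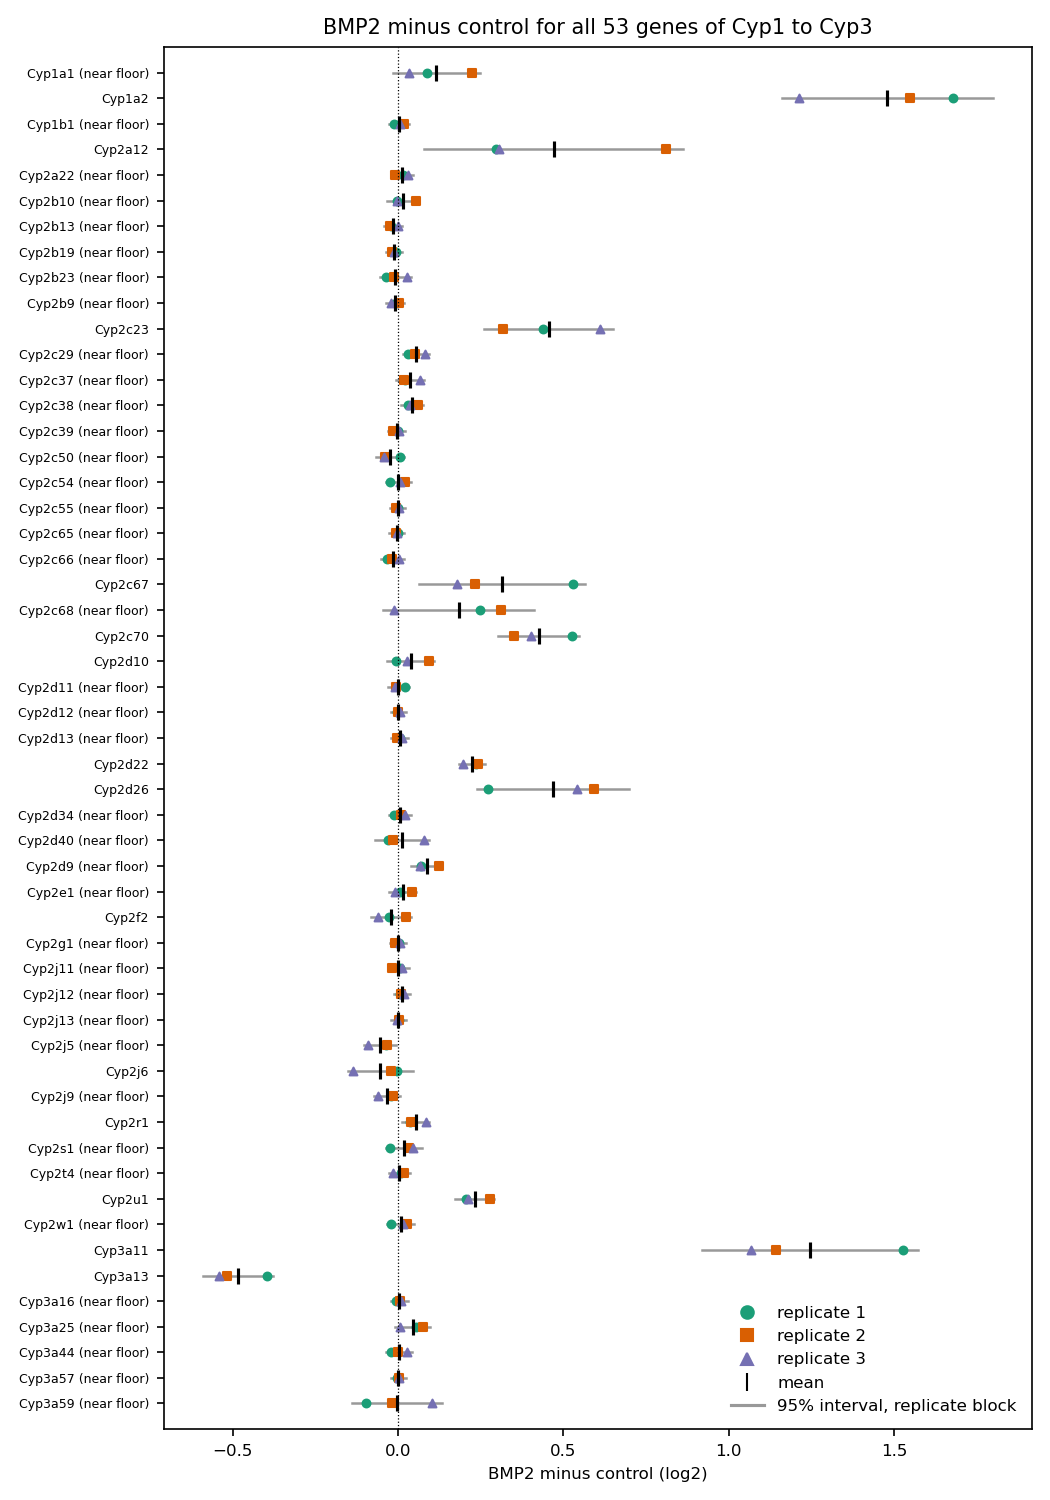
Difference between BMP2 and control (log2, horizontal axis) for all 53 members, grouped by subfamily. Points are the 3 replicate numbers, the black tick is their mean and the grey bar is the 95% interval of the fit with the replicate block. Most members sit within 0.1 of 0, Cyp1a2 and Cyp3a11 lie above 1, and Cyp3a13 lies at -0.49.

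Members also varied between the replicate numbers. In 11 of the 14 members above the floor replicate 3 had the lowest value in both groups, beside 17.7% of all probe sets with a mean of 7 or more. Replicate 2 had the highest value in both groups in 10 of the 14, beside 20.2%. In Cyp1a2, for example, the controls ran from 7.09 in replicate 3 to 8.67 in replicate 2, and the BMP2 samples from 8.30 to 10.22 in the same replicates.

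This variation was tested with the F test of the replicate number in limma, in a model that also held BMP2. None of the 53 members passed (lowest adjusted p 0.091, for Cyp2d22), beside 0.0284% of all probe sets, and 15 had an unadjusted p below 0.05, beside 14.8%. With an intensity trend in the variance prior 8 members passed, beside 1.03%, and these were Cyp1a2, Cyp2c23, Cyp2c29, Cyp2d26, Cyp2d9, Cyp2f2, Cyp3a11 and Cyp3a13. Among the 9 hepatocyte markers 5 were also lowest in replicate 3 in both groups, with Cyp1a2 and Cyp3a11 among the 5, while albumin was not. The part of this sample difference in the P450 results was not tested.

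Genes that act on or with these enzymes were examined as lists. The counts below stand beside 1.19% of all probe sets called without pairing and 3.32% with the block. Without pairing 12.5% of all probe sets had an unadjusted p below 0.05. Of 17 measured liver transcription factor genes at P450 promoters 3 rose and none fell without pairing, and the median difference was 0.021. Hnf4a, which encodes a nuclear receptor of hepatocytes, rose from 11.76, 11.67 and 11.62 to 12.48, 12.59 and 12.42 (difference 0.82 ± 0.055 SE, limma adjusted p = 0.0097). Prox1 and Foxa3 rose by 0.72 and 0.88 (adjusted p = 0.039 and 0.048). Cebpa differed by 0.26 and Onecut1 by -0.19, and neither passed.

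Of 14 receptor and sensor genes none passed without pairing in limma, 6 had an unadjusted p below 0.05, and the median difference was 0.0715. With the block Ahr, which encodes the sensor that drives the Cyp1 genes, rose by 0.50 (adjusted p = 0.048), from 10.38, 10.26 and 10.44 to 10.74, 10.79 and 11.04. Nr3c1, the glucocorticoid receptor gene, differed by 0.40 and Rxra, the partner of PXR and CAR, by 0.28, without passing in either fit. Nr1i2, the PXR gene, differed by 0.21 ± 0.068 (SE, adjusted p = 0.29), and Nr1i3, the CAR gene, was near the floor with a difference of -0.0062.

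Of 5 measured AHR target genes outside these families none passed without pairing in limma, and 1 had an unadjusted p below 0.05. With the block Ugt1a6b, a glucuronosyltransferase gene, rose by 1.06 (adjusted p = 0.036). It stood at 9.15, 9.19 and 8.39 in control and 10.07, 10.47 and 9.36 in BMP2 samples, so that replicate 3 was lowest in both groups, as in Cyp1a2. Nqo1 differed by 0.20 and Tiparp by -0.033 without passing, and Ahrr and Aldh3a1 were near the floor.

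Of 14 measured genes of electron transfer and haem synthesis Fdx1 rose, by 0.17 ± 0.0165 (SE, limma adjusted p = 0.026), and 13 did not pass. Its product, ferredoxin, serves mitochondrial P450 enzymes and not the microsomal ones described here. Hmox1, the haem-degrading oxygenase, differed by 0.43 (adjusted p = 0.095) and Pgrmc1, which binds P450 enzymes, by 0.22 (adjusted p = 0.14). Alas1, the first enzyme of haem synthesis, stood at 10.52 in control and 10.56 in BMP2 samples.

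Of 12 measured genes of the pericentral zone outside the P450 family 1 fell without pairing, Lect2 (from 9.18 to 8.18, SE 0.11, limma adjusted p = 0.033), and with the block Glul, the glutamine synthetase gene (-0.36, adjusted p = 0.046), and Rnf43, a Wnt feedback gene (-0.11, adjusted p = 0.033), fell too. Of 9 measured periportal genes none passed without pairing, and 1 had an unadjusted p below 0.05. With the block Hsd17b13, a lipid droplet enzyme gene, rose by 0.63 (adjusted p = 0.022), and Ass1 of the urea cycle differed by 0.26 without passing. The medians of the pericentral and periportal lists were -0.019 and 0.033, and 5 and 4 of their genes were near the floor.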

How the data were processed

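Expression was measured on 6 arrays, 3 control and 3 BMP2. The authors deposited log2 values for 21115 probe sets in each sample, computed by RMA per the submitters' processing notes. For the RMA version, probe grouping and filters, nothing is stated in the labels. An array holds no counts, so the number of arrays limits the precision. Symbols came from the platform annotation for 20405 of 21115 probe sets (none had several and 710 had none). All 53 members matched the RefSeq gene table of GRCm38.p6 by gene number.

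The values were tested without further normalization in limma 3.58.1 (R 4.3.3, lmFit and eBayes, two-sided, Benjamini-Hochberg over all probe sets). Each SE and interval comes from that model. The primary model had no pairing. The labels call the replicates biological, and the design text names 3 mice. Control and BMP2 samples that share a number deviated together from their groups (correlations of 0.48, 0.58 and 0.61). For samples of unlike number the correlations ran from -0.545 to 0.18. Deviations from a mean of 3 samples are not independent of each other. On these grounds samples were paired by number, and a fit with the replicate number as a block stands beside the primary model. The pairing thus rests in part on the same values that the block fit tested.

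The members, lists and tests were chosen with earlier results of these data known. Full statistics went to members called in either fit, the 10 with the smallest p, the brightest of each subfamily and 3 markers. Other members are given by level or difference. Cyp2c23, Cyp2c29, Cyp2c65, Cyp2c68, Cyp2d9, Cyp2d10, Cyp2d26, Cyp2c67, Cyp3a16, Nr1i2, Nr1i3, Alas1 and single cell type markers were singled out after their values were seen. The fits were checked on simulated data in which samples of the same replicate number did not deviate together. That check therefore does not cover the block under the pairing seen here. Combining the block with the intensity trend or with the filter on dim probe sets was added after the data were seen.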

Additional observations from a re-analysis of the deposited data

How the results depend on the processing

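The count of members called rests on the model of the variance and on the pairing. It was 1 without pairing (1 higher, 0 lower), 6 with the replicate block (5 higher, 1 lower), 2 with probe sets of mean 7 or more (2 higher), 2 with an intensity trend (2 higher), and 1 after renewed quantile normalization or median centring. Combining the block with the trend gave 12 (11 higher, 1 lower), and the block with the filter gave 10 (9 higher, 1 lower). The last 2 fits were added after the data were seen. They called the 6 members of the block fit and Cyp2a12, Cyp2c23, Cyp2c67 and Cyp2d26, and the trend also called Cyp2c38 and Cyp2d9. Cyp2c38 and Cyp2d9 were near the floor, with differences of 0.042 and 0.086. Among the members called, Cyp2a12 passed the filter only through its BMP2 samples. With 1 sample left out the count was 0 to 1, and it was 0 without control replicate 1, 2 or 3 and without BMP2 replicate 1. In those limma fits 4 or 5 of the 53 members had an unadjusted p below 0.05, beside 9.98% to 12.1% of all probe sets. The block on any 2 of the 3 replicate numbers called 0 of the 53 members and 0 of all probe sets. It gave 10 to 13 members an unadjusted p below 0.05, beside 12.1% to 17.7% of all probe sets, and that fit is too small to say more.

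Over all probe sets 251 were called without pairing, 702 with the block, 443 with the filter, 438 with the trend, 1278 with block and trend, 1271 with block and filter, 30 to 223 with 1 sample left out, and 0 with the block on 2 replicate numbers. The median over members moved from 0.0042 to 0.2721 with the filter, with or without the block, because the 39 members near the floor are left out, and was 0.0023 to 0.0132 with samples left out. Members that differ between replicate numbers were 0 in the main test, 8 with the trend and 7 with the filter. With the trend or the filter and no block Cyp2c70 passed beside Cyp2u1.

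The direction held in every alternative for Cyp1a2 (1.02 to 2.08), Cyp3a11 (0.97 to 1.60), Cyp3a13 (-0.62 to -0.32), Cyp2c70 (0.36 to 0.51), Cyp2d22 (0.13 to 0.31), Cyp2u1 (0.21 to 0.25) and Cyp2a12 (0.21 to 0.62). Many of these alternatives could not have reversed it. The block, the trend and the filter on all samples change the SE and not the difference. The block without 1 replicate number averages pairs that share a sign in each of these members. Samples left out moved the value by over 1.5 times in Cyp2a12 (0.21 without BMP2 replicate 2, 0.30 with the block and without replicate 2), Cyp2d22 (0.13 without BMP2 replicate 2, 0.14 without control replicate 1) and Cyp3a13 (-0.32 without BMP2 replicate 3). In the fits without 1 sample, which use no block, differences between replicate numbers enter the value. Of 328 values for 22 named members, which include those that the fit could not change, 20 changed sign. They belonged to 7 members near 0, whose values with 1 sample left out are given as ranges. These ranges were -0.0028 to 0.0085 for Cyp1b1, -0.0075 to 0.0316 for Cyp2b10, 0.0016 to 0.0275 for Cyp2e1, -0.1580 to 0.1354 for Cyp2f2, -0.0065 to 0.0028 for Cyp2g1, -0.0029 to 0.0098 for Cyp2t4 and -0.0021 to 0.0164 for Cyp2w1. Cyp2g1 was also 0.0001 after quantile normalization and 0.0007 after median centring. With the block and without replicate 2 the values were -0.0034 for Cyp1b1 and Cyp2b10, -0.0015 for Cyp2e1, 0.0034 for Cyp2g1, and -0.0029 for Cyp2t4 and Cyp2w1. The cause of the sign changes was not tested.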

Other observations

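Of 35 measured P450 genes of families 4 and above none passed in limma with or without the block. Without pairing 1 had an unadjusted p below 0.05, beside 12.5% of all probe sets. Differences ran from -0.20 to 0.18 with a median of -0.0052. Cyp51, a cholesterol synthesis enzyme, differed by 0.11 (adjusted p = 0.068), and Cyp27a1, a sterol hydroxylase, by -0.14 (adjusted p = 0.44).

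Of 59 measured conjugating enzyme genes of the UGT, GST and SULT families none passed without pairing in limma. An unadjusted p below 0.05 was found in 10 of the 59, beside 12.5% of all probe sets. With the block 2 rose and 1 fell, beside 3.32% of all probe sets. Ugt1a6b was higher, as was Gstm7 (0.098, adjusted p = 0.035), and Gstm2, another glutathione transferase gene, fell by 0.60 on the log2 scale (adjusted p = 0.029). Gstm2 stood at 10.03, 9.89 and 9.36 in control and 9.33, 9.37 and 8.79 in BMP2 samples. In 27 of the 59 genes replicate 3 was lowest in both groups, beside 13.2% of all probe sets.

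The labels do not give the sex of the mice. Xist stood at 6.47 to 6.50 in all 6 samples, near the floor, while the Y-linked genes Eif2s3y and Uty stood at 9.76 to 10.13 and 8.98 to 9.17. Cyp2b9, Cyp2b13, Cyp3a44 and Cyp2c39, P450 genes that are higher in female mice, were near the floor in these samples, as was the male-biased Cyp2d9.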
